A study of Mus musculus with 32 samples.

Results

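The cathepsins, proteases of lysosomes and endosomes, were followed as a family of 10 genes, taken by gene symbol. They were the cysteine proteases Ctsb, Ctsc, Ctsh, Ctsk, Ctsl, Ctss and Ctsz, and the aspartic proteases Ctsd, Ctse and Napsa. All 10 were on both array versions, with 14 of 24613 probes in experiment 1 and 15 of 25697 probes in experiment 2. The cells were bone marrow derived macrophages from AKR and DBA/2 mice that all lacked ApoE, bred to 16 weeks of age and cultured with L-cell conditioned medium as a source of M-CSF. In experiment 1 (females by the labels) loaded dishes received 100 µg/ml acetylated LDL (AcLDL), and in experiment 2 (males) 50 µg/ml, for 24 h, while unloaded dishes received none. AcLDL is a modified lipoprotein that macrophages take up through scavenger receptors and that fills them with cholesterol. Each of the 8 groups held 4 arrays, so there were 32 arrays in all. Sex, AcLDL dose and preparation, and array version changed together between the experiments. Their parts in any difference between the experiments cannot be told apart. Among its top strain differences in unloaded cells of experiment 2, the paper lists Eif2s3y, a Y-linked gene, as higher in DBA/2 cells. All arrays of that experiment are labelled male. Whether sex entered its strain differences was not tested. The sources used here leave it unsaid whether replicate dishes stem from different animals. The p-values therefore reflect only how far these cultures varied, which may be technical.

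Most cathepsins are made as inactive precursors, tagged with mannose 6-phosphate, and matured in the acid lumen of endosomes and lysosomes. There they degrade proteins delivered by endocytosis and autophagy, and in antigen presenting cells some of them trim the invariant chain of MHC class II. In macrophages they are abundant, and when secreted they can cut elastin, collagen and lipoproteins, for which they have been studied in atherosclerosis.

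Before the results, 2 arrays of experiment 2 need to be named. Over all probes kept, the array labelled AKR unloaded replicate 1 correlated better with the loaded AKR arrays (mean r = 0.9856) than with its own group (0.9658), and the array labelled AKR loaded replicate 2 better with the unloaded AKR arrays (0.9851) than with its own (0.9684). The other 30 arrays correlated best with their own group. Experiment 2 is therefore given by label and again without these 2 arrays, and no array was moved to another group. Of 12 macrophage markers 9 were on the arrays, and 7 of them in experiment 1 (Adgre1, Cd14, Fcgr1, Itgam, Lyz2, Mertk and Mrc1) and 8 in experiment 2 (those and Cd163) were above the median of all values in every group. Of the other lists, in any group, at most 2 of 8 T and NK cell markers passed that median in experiment 1 and 0 of 9 in experiment 2, at most 3 of 5 and 2 of 5 B cell markers, 3 of 9 and 3 of 9 neutrophil markers, 4 of 9 and 3 of 9 dendritic cell markers, 3 of 7 and 3 of 7 osteoclast markers, 3 of 8 and 3 of 8 stromal markers, and 2 of 7 and 1 of 7 mast and erythroid markers.

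Values are log2 intensities of single probes, which cannot be set against each other between probes or between experiments. A gene was read from its brightest kept probe, and a difference was called at a limma adjusted p under 0.01 over all kept probes of the experiment. Ctsl did not pass the filter on dim probes in experiment 1, where its probe lay between 5.62 and 6.11 on all 16 arrays around the median of 5.98. So 9 members were tested in experiment 1 and 10 in experiment 2. In bulk RNA, fewer cells that express a gene and less of its RNA per cell cannot be told apart.

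The 10 genes lie on 7 chromosomes of the mouse assembly GRCm38.p6. Ctsk and Ctss are close neighbours on chromosome 3, while Ctsc, Ctsd and Napsa are spread over chromosome 7. Ctse is on chromosome 1, Ctsz on 2, Ctsh on 9, Ctsl on 13 and Ctsb on 14. RefSeq promoters, 250 bases before to 50 after a RefSeq start, were at hand for 6 of the 10 members (Ctsc, Ctsd, Ctsk, Ctsl, Ctss and Ctsz). Those of Ctsk and Ctss are shown because these neighbours had different patterns, that of Ctsl because its pattern followed Ctsk in experiment 2, and that of Ctsc because its loading response differed most between the strains in experiment 1. The windows are chr3:95498960-95499259 (plus strand) for Ctsk, chr3:95526536-95526835 (plus strand) for Ctss, chr13:64370471-64370770 (minus strand) for Ctsl and chr7:88277835-88278134 (plus strand) for Ctsc. The RefSeq starts behind the Ctsl and Ctsc windows lie inside the annotated spans of these genes. Each is written 5′ to 3′ on the strand of its gene, and capitals mark matches on either strand to 4 short motifs: CACGTG, the E-box core that MiT/TFE factors of lysosomal genes can bind, CATGTG, the core of the M-box of MITF, GAGGAA, a core of PU.1 sites, and TGANTCA of AP-1.
Ctsk: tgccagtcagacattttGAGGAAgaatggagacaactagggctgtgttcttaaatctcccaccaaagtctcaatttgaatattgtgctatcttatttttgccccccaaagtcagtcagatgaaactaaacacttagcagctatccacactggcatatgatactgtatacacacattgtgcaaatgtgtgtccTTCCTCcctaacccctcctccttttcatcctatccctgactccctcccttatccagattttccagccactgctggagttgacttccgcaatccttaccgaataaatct
Ctss: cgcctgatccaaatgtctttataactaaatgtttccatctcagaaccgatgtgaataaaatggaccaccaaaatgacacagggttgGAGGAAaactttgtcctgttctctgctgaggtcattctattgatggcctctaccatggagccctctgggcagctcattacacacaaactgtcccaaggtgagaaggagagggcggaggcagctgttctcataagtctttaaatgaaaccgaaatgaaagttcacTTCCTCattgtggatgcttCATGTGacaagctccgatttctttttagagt
Ctsl: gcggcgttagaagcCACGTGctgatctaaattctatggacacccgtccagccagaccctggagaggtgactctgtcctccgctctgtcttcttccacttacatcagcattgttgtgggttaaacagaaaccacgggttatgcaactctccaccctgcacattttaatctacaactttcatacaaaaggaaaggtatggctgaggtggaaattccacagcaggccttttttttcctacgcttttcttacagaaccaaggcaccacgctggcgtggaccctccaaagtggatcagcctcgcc
Ctsc: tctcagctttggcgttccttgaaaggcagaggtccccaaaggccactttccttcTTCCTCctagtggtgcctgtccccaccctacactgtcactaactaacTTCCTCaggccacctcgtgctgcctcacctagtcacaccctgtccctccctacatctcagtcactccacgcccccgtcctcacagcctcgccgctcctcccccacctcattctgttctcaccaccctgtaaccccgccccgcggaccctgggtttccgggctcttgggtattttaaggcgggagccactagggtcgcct

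The Ctsk window held GAGGAA at -233 and its reverse complement at -58. Positions are counted from the RefSeq start of each window, which for Ctsl and Ctsc is not the start of the annotated gene. The Ctss window held the same core at -164 and 1, and CATGTG at 20. In the Ctsl window CACGTG stood at -236, and in the Ctsc window the complement of GAGGAA stood at -196 and -149. The Ctsl match lies inside the annotated span of its gene. Of the promoters not shown, that of Ctsd held CACGTG at -245 and -98, and that of Ctsz held none of the 4 motifs. Over all 32851 promoters of this length, 28.3% held GAGGAA, 7.15% CACGTG, 14.2% CATGTG and 7.81% TGANTCA, and no marked matches overlapped. A match is a description of the letters and not of binding.

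The first question was how unloaded macrophages of the strains differ in these transcripts. In experiment 1, 4 of the 9 members tested were called: Ctsh and Ctse were higher in DBA/2 cells, and Ctsk and Napsa were lower. For comparison, 28.2% of all 9312 genes tested were called in that comparison. In experiment 2, 7 of 10 members were called by label, against 10.6% of all 9356 genes, with Ctsh, Ctsc and Ctse higher in DBA/2 cells and Ctsl, Ctsk, Ctsd and Napsa lower. The same 7 were called without the 2 AKR arrays, where 15.0% of genes were called. The 4 genes of experiment 1 were called in the same direction in experiment 2, and no member was called in opposite directions. Over all 7173 genes with a kept probe in both experiments, 6.45% were called the same way in both, and 7.94% of 7208 genes without the 2 AKR arrays. The median difference of the members was 0.06 in experiment 1 and -0.06 in experiment 2, beside 0.00 and -0.01 for all genes, since members moved both ways.

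In AcLDL-loaded cells, 5 of 9 members were called between the strains in experiment 1, against 29.7% of all genes. Ctsh, Ctsc and Ctse were higher in DBA/2 cells, and Ctsk and Napsa were lower. In experiment 2 the count was 4 of 10 by label, against 12.8% of genes, with Ctsh higher and Ctsk, Ctsl and Napsa lower. Without the 2 AKR arrays it was 7 of 10, against 20.6% of genes, with Ctsc, Ctse and Ctsz added. Called the same way in both experiments were Ctsh, Ctsk and Napsa by label (8.11% of genes), and Ctsc and Ctse as well without the 2 arrays (13.1% of genes). The strain differences of each gene are set side by side in the plot of both states.

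**Figure D1:**
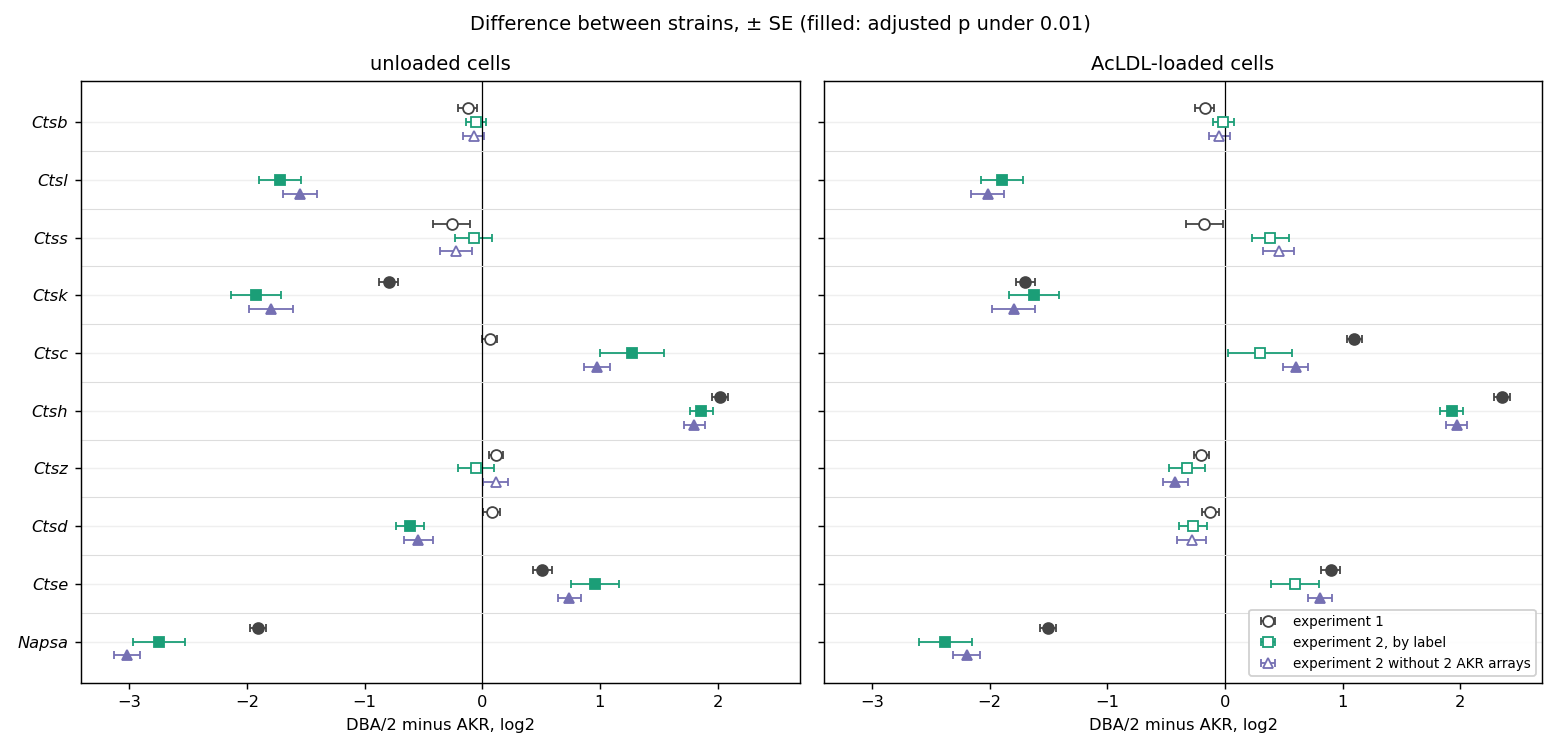
Difference between strains (DBA/2 minus AKR, log2, x axis) of the 10 cathepsin genes at their brightest kept probe, in unloaded (left) and AcLDL-loaded cells (right), with bars for the SE of the limma fit over 16 arrays (14 without the 2 AKR arrays) and filled points for an adjusted p under 0.01. Napsa and Ctsk lay left of 0 and Ctsh right of 0 in every fit, and Ctsl has no experiment 1 point because its probe there was dim.

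The second question was how cholesterol loading changed the family in each strain. In AKR cells of experiment 1, 7 of 9 members were called, against 31.3% of genes. Ctsk, Ctsz and Ctsd rose, and Ctsc, Ctse, Napsa and Ctsh fell. In experiment 2 by label 0 of 10 members were called, as were 0 of all 13732 probes (0% of genes, limma). At an unadjusted p under 0.05 the counts were 5 of 10 members and 1877 probes, or 13.7%. With array weights in the limma fit 6 members were called, as were 2240 of the 13732 probes. Without the 2 AKR arrays 6 of 10 were called as well, against 19.7% of genes: Ctsz and Ctsl rose, and Ctsc, Ctse, Napsa and Ctss fell. In this fit and in experiment 1 alike, Ctsz was higher and Ctsc, Ctse and Napsa lower after loading, and 12.8% of 7208 genes were called the same way in both experiments.

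In DBA/2 cells of experiment 1, 2 of 9 members were called, against 12.8% of genes, with Ctsk higher and Ctse lower after loading. In experiment 2 the count was 1 of 10 by label (Ctsc, lower), against 8.30% of genes, and 2 of 10 (Ctsc and Ctse, both lower) without the 2 AKR arrays, against 18.9% of genes. These shares are near the background. No member was called in both experiments by label (3.85% of genes were), and Ctse was without the 2 arrays (7.24% of genes). The response itself differed between the strains in 3 of 9 members of experiment 1 (Ctsc, Ctsk and Napsa, limma interaction term), against 15.8% of genes. In experiment 2 it did so in 0 of 10 by label, where 0.994% of genes were called. At an unadjusted limma p under 0.05 the count by label was 1 of 10 members, beside 15.3% of all probes. Without the 2 arrays the response differed in 1 of 10 (Napsa), against 5.75% of genes. Napsa was then the 1 member of 9 called the same way in both experiments, where 2.19% of genes were (0 members and 0.293% of genes by label). The sum of the macrophage markers on the linear scale moved with loading. It was 42672 to 46000 in unloaded and 32398 to 33901 in loaded AKR arrays of experiment 1, against 41503 to 44252 and 40788 to 42016 in DBA/2 arrays. In experiment 2 without the 2 arrays it was 26166 to 29338 and 22277 to 24857 in AKR cells, and 32149 to 33959 and 29111 to 31696 in DBA/2 cells. Loaded arrays were thus lower without overlap in both strains of experiment 2, and unloaded AKR arrays were below unloaded DBA/2 arrays. The part of these shifts in the strain and loading differences was not tested.

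**Figure D2:**
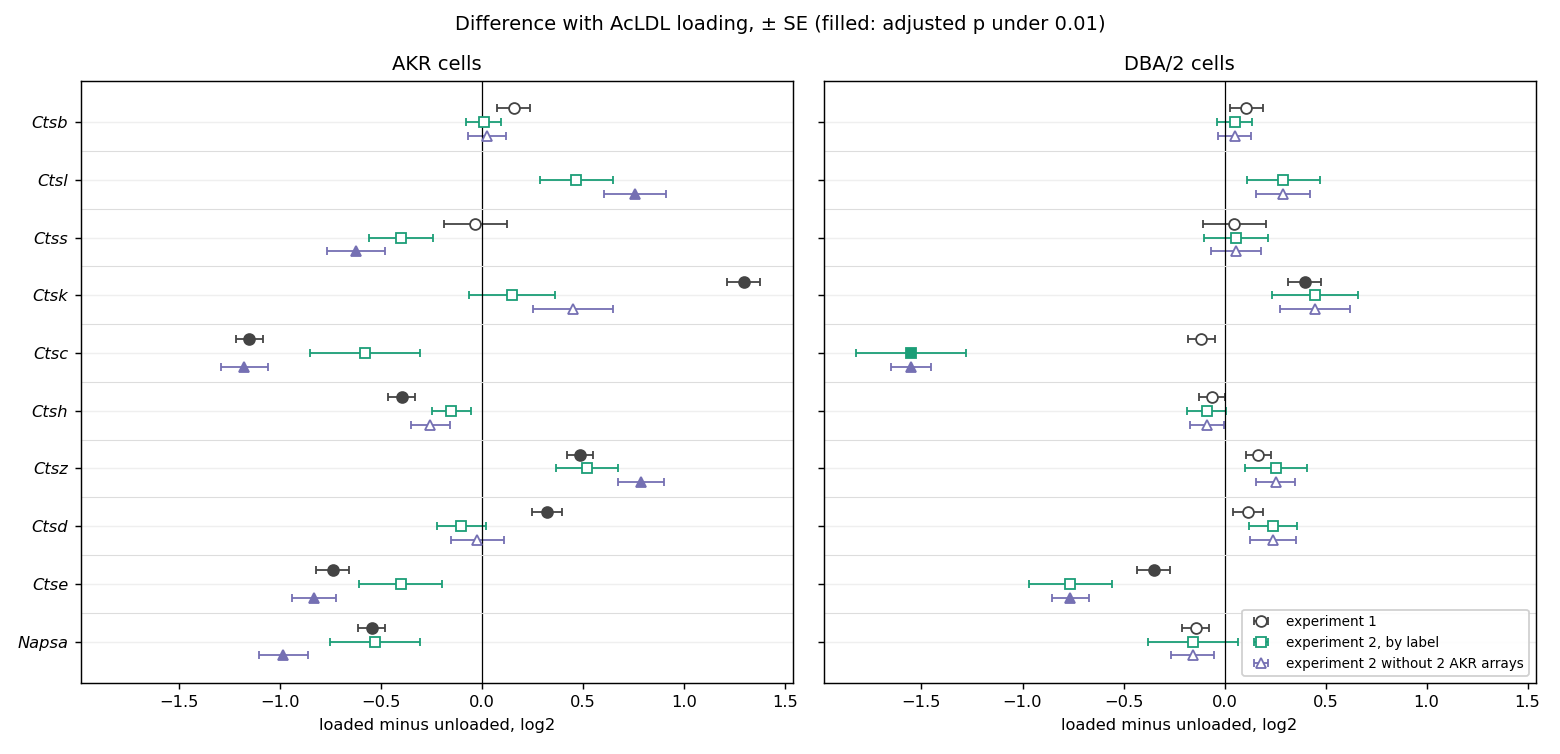
Difference with AcLDL loading (loaded minus unloaded, log2, x axis) of the same genes in AKR (left) and DBA/2 cells (right), with SE bars and filled points for a limma adjusted p under 0.01. Filled points of experiment 1 number 7 for AKR and 2 for DBA/2, and no AKR point of experiment 2 by label is filled.

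Ctsb, cathepsin B, is an abundant endopeptidase that also trims dipeptides from the carboxyl end. Its brightest probe was among the brightest on both arrays, with group means of 13.46 to 13.74 in experiment 1 and 13.64 to 13.71 in experiment 2. No comparison was called at this probe in either experiment. Its group means stood at percentiles 99.76 to 99.85 of all probes in experiment 1 and 99.95 to 99.96 in experiment 2. At this top end of quantile-matched arrays the same values, such as 13.64 and 13.76, recurred across groups of experiment 2. Differences may be compressed there, so the lack of a call does not show that Ctsb was unchanged. The widest difference was -0.17 ± 0.082 (DBA/2 minus AKR in loaded cells, experiment 1, adjusted p = 0.0995). A second probe of experiment 1 behaved otherwise. It read 12.40, 12.48, 12.18 and 12.22 in unloaded AKR cells and 13.31, 13.31, 13.16 and 13.21 in loaded AKR cells. The loaded AKR arrays stood above all 12 others, and those of the other groups overlapped between 12.18 and 12.85. The limma difference with loading was 0.93 ± 0.088 in AKR cells (adjusted p = 6.20e-09) and 0.10 ± 0.088 in DBA/2 cells (adjusted p = 0.453), and the responses differed by -0.83 ± 0.13 (adjusted p = 2.73e-05). The probes of Ctsb thus disagreed, and the second one was not on the array of experiment 2.

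Ctsl, cathepsin L, is an endopeptidase that processes the invariant chain in thymic epithelium and degrades lysosomal cargo. Its probe in experiment 2, which differs from the dim one of experiment 1, read 9.26, 8.55, 8.57 and 8.64 in unloaded AKR cells and 7.49, 6.85, 6.99 and 6.82 in unloaded DBA/2 cells. In loaded cells the values were 9.18, 8.85, 9.26 and 9.60 in AKR and 7.34, 7.35, 7.21 and 7.41 in DBA/2. Every AKR array was above every DBA/2 array. Transcript was 3.29-fold lower in unloaded DBA/2 cells (-1.72 ± 0.18, adjusted p = 2.67e-06) and 3.72-fold lower in loaded ones (-1.90 ± 0.18, adjusted p = 7.87e-07). Without the 2 AKR arrays the differences were -1.55 ± 0.14 and -2.02 ± 0.14, and the rise with loading in AKR cells went from 0.47 ± 0.18 (adjusted p = 0.360, not called) to 0.76 ± 0.15 (adjusted p = 0.00138). The array at 9.26 among unloaded AKR cells is the one named above.

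Ctss, cathepsin S, is the endopeptidase that removes the last invariant chain fragment before peptide loading in macrophages and dendritic cells, and it stays active at neutral pH. In experiment 1 its values were 12.05, 12.17, 11.44 and 11.20 in unloaded AKR cells, 11.91, 11.82, 11.47 and 11.53 in loaded AKR cells, 11.45, 11.77, 11.35 and 11.26 in unloaded DBA/2 cells and 11.56, 11.72, 11.38 and 11.36 in loaded DBA/2 cells. All groups overlapped, and no comparison was called (unloaded strain difference -0.26 ± 0.16, adjusted p = 0.208). In each group replicates 1 and 2 were above replicates 3 and 4. The paper's methods place 2 unloaded and 2 loaded samples of each strain on every chip. The labels do not say which arrays shared a chip, and whether this split follows the chips was not tested. With replicates 1 and 2 against 3 and 4 as a term, the strain difference in unloaded cells kept its size. Its SE was then 0.095 and its limma adjusted p 0.0331, still not called. In experiment 2 nothing was called by label, and without the 2 AKR arrays Ctss was 1.54-fold lower in loaded than in unloaded AKR cells (-0.62 ± 0.14, adjusted p = 0.00395), with 0.06 ± 0.12 in DBA/2 cells (adjusted p = 0.781). The difference between these responses, 0.68 ± 0.19, was not called (adjusted p = 0.0323).

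Ctsk, cathepsin K, is the collagen and elastin degrading enzyme best known from osteoclasts. The same probe was read in both experiments. In experiment 1 it gave 9.54, 9.48, 9.62 and 9.43 in unloaded AKR cells and 8.67, 8.58, 8.74 and 8.88 in unloaded DBA/2 cells. After loading it gave 10.81, 10.76, 10.79 and 10.89 in AKR cells and 8.94, 9.38, 9.04 and 9.11 in DBA/2 cells. The 4 groups did not overlap, with loaded AKR cells highest and unloaded DBA/2 cells lowest. Loading raised Ctsk 2.46-fold in AKR cells (1.30 ± 0.082, adjusted p = 3.75e-12) and 1.32-fold in DBA/2 cells (0.40 ± 0.082, adjusted p = 0.000969), and the responses differed by -0.90 ± 0.12 (adjusted p = 3.13e-06). The strain difference accordingly widened from -0.80 ± 0.082 in unloaded to -1.70 ± 0.082 in loaded cells (adjusted p = 2.63e-08 and 1.18e-14).

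In experiment 2 Ctsk read 9.04, 8.64, 8.52 and 8.44 in unloaded AKR, 8.73, 8.29, 9.07 and 9.15 in loaded AKR, 7.13, 6.70, 6.84 and 6.28 in unloaded DBA/2 and 6.80, 7.42, 7.07 and 7.46 in loaded DBA/2 cells. Again every AKR array was above every DBA/2 array. Ctsk was 3.79-fold lower in unloaded DBA/2 cells (-1.92 ± 0.21, adjusted p = 4.68e-06) and 3.08-fold lower in loaded ones (-1.62 ± 0.21, adjusted p = 3.05e-05). The loading differences were 0.15 ± 0.21 in AKR and 0.45 ± 0.21 in DBA/2 cells, neither called, and without the 2 arrays both were 0.45 (± 0.20 and ± 0.17, adjusted p = 0.107 and 0.0652). The larger AKR response of experiment 1 was therefore not seen here, and the difference between the experiments was not tested. The summed level of the osteoclast markers did not overlap between the strains in unloaded cells, where AKR arrays were higher, and overlapped in loaded cells. Their sum over 7 genes was 3101 to 4345 in unloaded AKR and 1642 to 2079 in unloaded DBA/2 arrays of experiment 1, and 3474 to 4211 and 3713 to 5190 in loaded arrays, where Ctsk still differed. In experiment 2 by label the sums were 936 to 1128 and 633 to 719 in unloaded cells, and 822 to 1099 and 609 to 849 in loaded cells, and Calcr, Ocstamp and Atp6v0d2 did not pass the median in any group. Of the 7 genes at most 3 passed the median in any group, and Mmp9 alone did so in every group of both experiments. The sums thus rest on few genes and are not a measure of osteoclast content. The part of any osteoclasts in the Ctsk values was not tested.

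**Figure D3:**
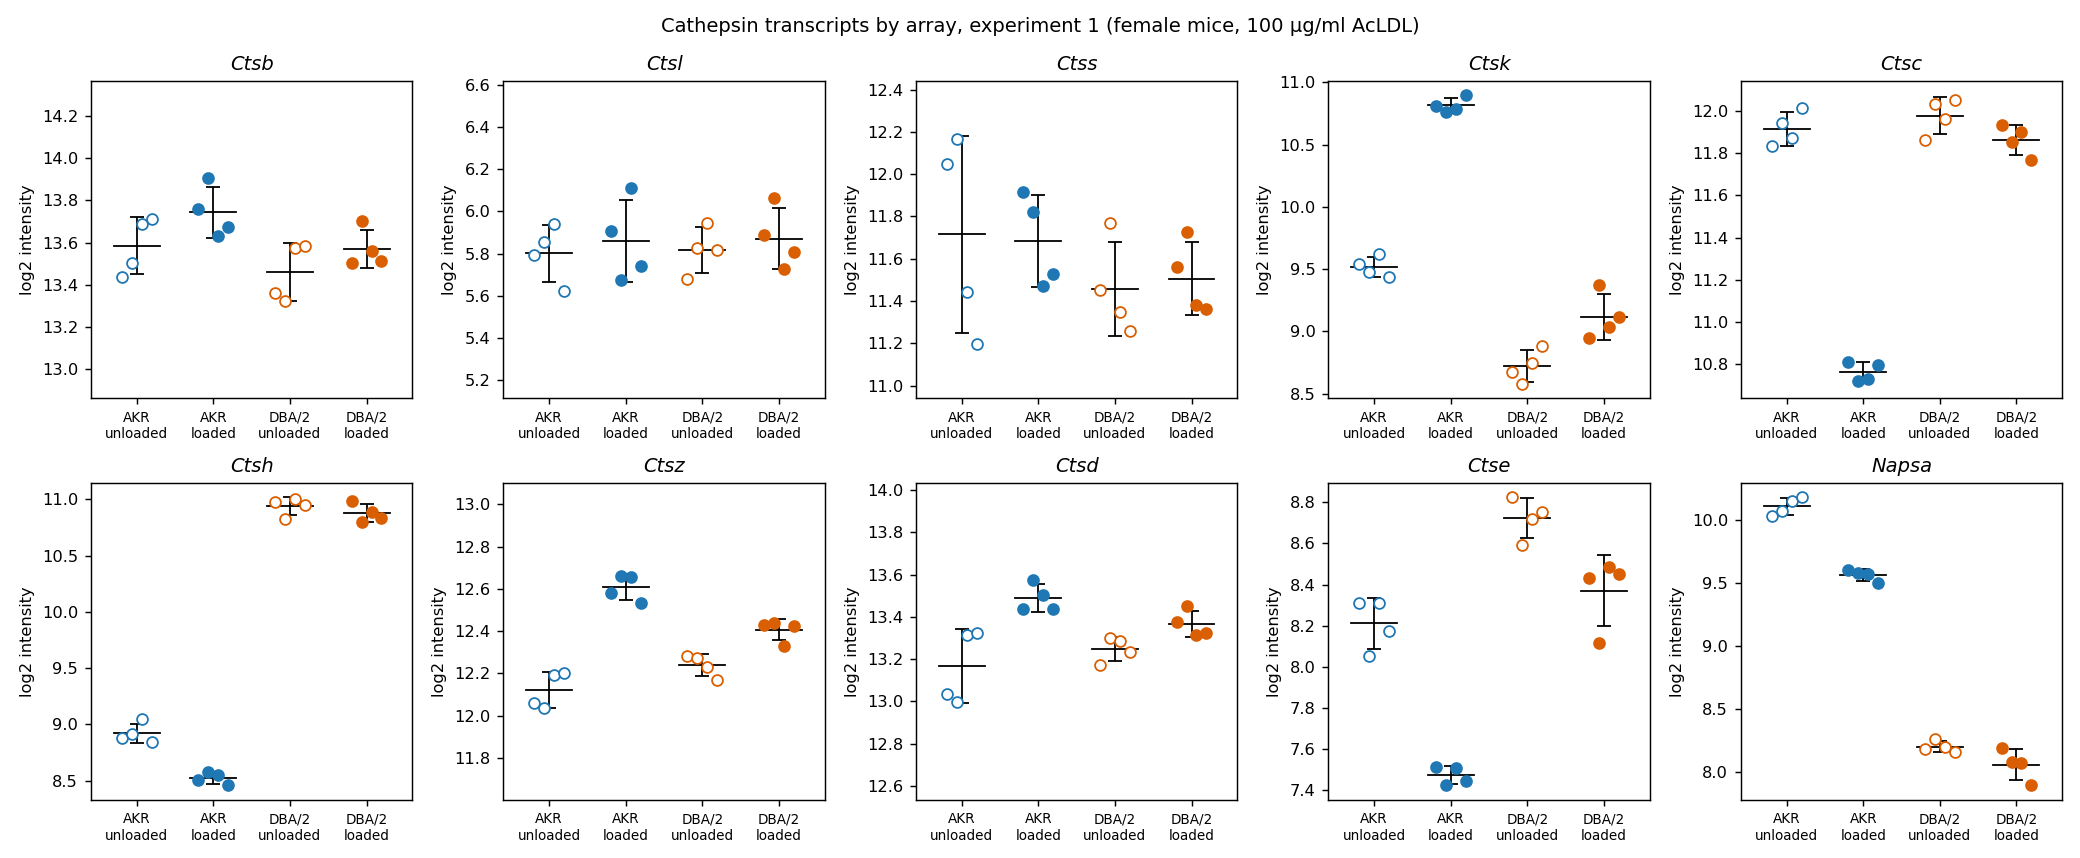
Log2 intensity (y axis) of each cathepsin gene at its brightest probe on the 16 arrays of experiment 1, by group (x axis), with 1 point an array, open for unloaded and filled for loaded cells, and lines for the mean ± SD of 4 arrays. The 4 groups separate without overlap for Ctsk, loaded AKR cells stand apart for Ctsc and Ctse, and the strains stand apart for Ctsh and Napsa, while the Ctsl probe, which did not pass the filter, stays near 5.8 in all groups.

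Ctsc, cathepsin C or dipeptidyl peptidase I, removes dipeptides from the amino end and activates granule serine proteases. It had 2 probes in experiment 1 and 3 in experiment 2, with 1 shared. In experiment 1 the brightest probe read 11.83, 11.94, 11.87 and 12.01 in unloaded AKR cells and 10.81, 10.72, 10.73 and 10.80 in loaded AKR cells. In DBA/2 cells it read 11.86, 12.03, 11.96 and 12.05 unloaded and 11.93, 11.85, 11.90 and 11.77 loaded. Loaded AKR arrays were below all others, and the other 3 groups overlapped. Loading lowered Ctsc 2.22-fold in AKR cells (-1.15 ± 0.065, adjusted p = 4.40e-13) with -0.11 ± 0.065 in DBA/2 cells (adjusted p = 0.235), and the responses differed by 1.04 ± 0.092 (adjusted p = 1.05e-08). The strains did not differ by the test in unloaded cells (0.06 ± 0.065, adjusted p = 0.482) and differed 2.14-fold in loaded cells (1.10 ± 0.065, adjusted p = 5.92e-13). The second probe gave an interaction of 0.84 ± 0.13 (adjusted p = 3.30e-05).

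Experiment 2 showed another arrangement of Ctsc. Its brightest probe read 5.99, 7.21, 7.05 and 7.23 in unloaded AKR, 6.13, 7.19, 5.93 and 5.90 in loaded AKR, 8.20, 8.34, 7.97 and 8.05 in unloaded DBA/2 and 6.53, 6.78, 6.49 and 6.54 in loaded DBA/2 cells. The arrays at 5.99 and 7.19 are the 2 named above. Here DBA/2 cells were higher before loading (1.27 ± 0.27, adjusted p = 0.00326) and fell 2.93-fold with it (-1.55 ± 0.27, adjusted p = 0.00102). The strain call was lost without DBA/2 unloaded replicate 1 (1.25, adjusted p = 0.0104) or replicate 2 (1.20, adjusted p = 0.0127). Without the 2 AKR arrays Ctsc changed by -1.18 ± 0.12 in AKR cells (adjusted p = 1.43e-06) and by -1.55 ± 0.10 in DBA/2 cells (adjusted p = 1.34e-08), and the strain differences were 0.98 ± 0.11 unloaded and 0.60 ± 0.11 loaded (adjusted p = 5.73e-06 and 0.000527). By label the difference between the responses was -0.97 ± 0.39 at this probe, -0.96 ± 0.29 at the shared probe and -1.12 ± 0.29 at the third, none called (adjusted p = 0.221, 0.0948 and 0.0465). Without the 2 arrays it was -0.38 ± 0.15 at this probe (adjusted p = 0.148), -0.60 ± 0.20 at the shared probe (adjusted p = 0.0739) and -0.70 ± 0.15 at the third (adjusted p = 0.00547). So the interaction was positive at both probes of experiment 1, and negative at all 3 probes of experiment 2, where it was called at 1 of them without the 2 arrays and at none by label. A test between the experiments was not made. Neutrophil and precursor markers, which include proteases that Ctsc activates, summed to 738 to 928 in unloaded AKR and 329 to 366 in unloaded DBA/2 arrays of experiment 2, opposite to Ctsc. In experiment 1 they summed to 761 to 807 in unloaded and 1539 to 2139 in loaded DBA/2 arrays, and to 824 to 988 and 916 to 986 in AKR arrays, so they also moved with loading in DBA/2 cells there. Without the 2 arrays, these markers also fell with loading in AKR cells of experiment 2, the direction of Ctsc. They summed to 838 to 928 in unloaded and 578 to 702 in loaded AKR arrays. DBA/2 arrays overlapped there (329 to 366 and 336 to 398). Of these genes, Elane and Ctsg passed the median in no group of experiment 1, and Prtn3 only in unloaded DBA/2 cells. The part of these markers in the Ctsc values and in the loading differences was not tested.

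**Figure D4:**
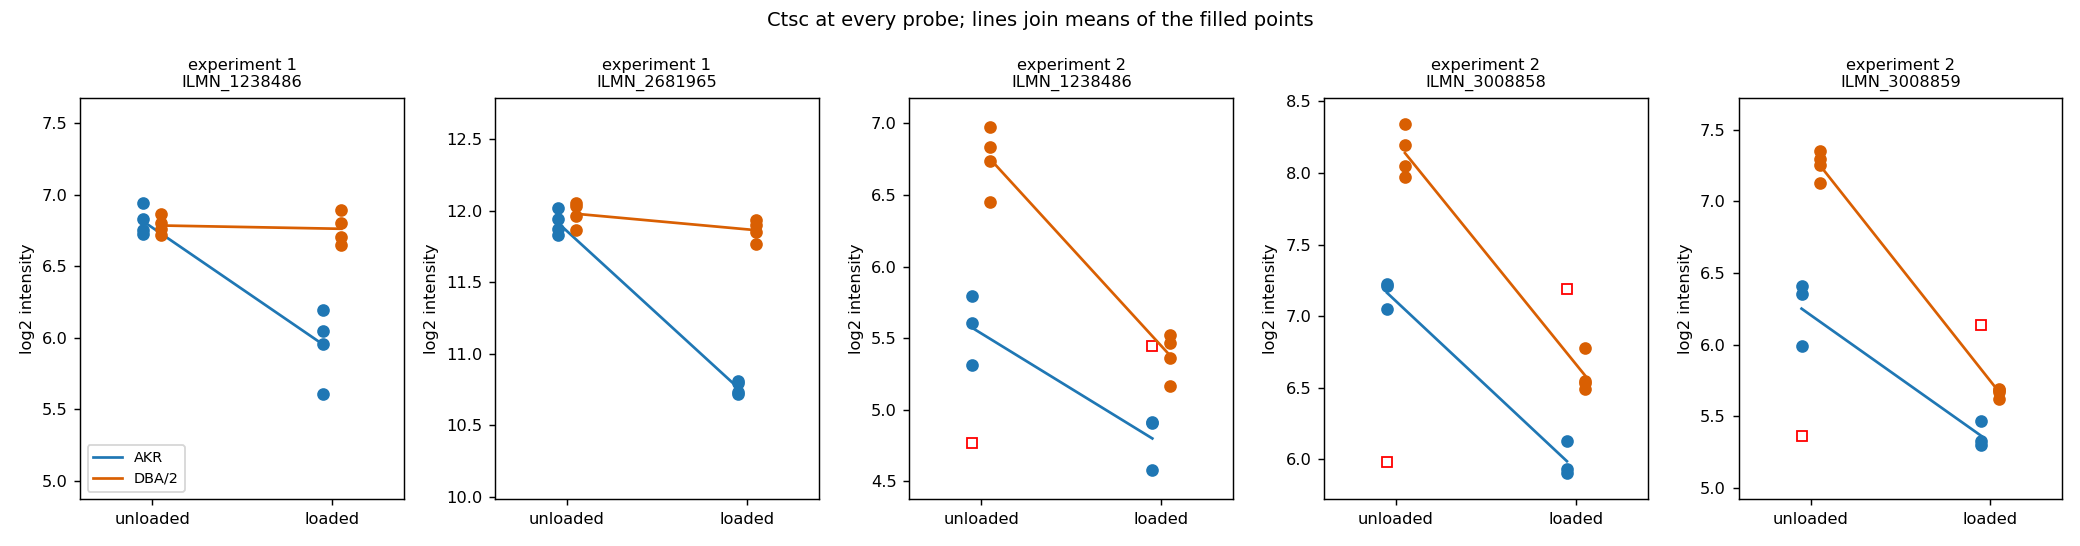
Ctsc at every probe (2 in experiment 1, 3 in experiment 2), log2 intensity (y axis) in unloaded and loaded cells (x axis) of AKR (blue) and DBA/2 (orange), 1 point an array, with lines between the means of filled points and red squares for the 2 AKR arrays nearest the other AKR group. In experiment 1 the AKR line falls and the DBA/2 line stays near level, and in experiment 2 both fall from a higher DBA/2 start.

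Ctsh, cathepsin H, is an aminopeptidase of lysosomes that also matures surfactant protein in lung. It had the largest strain difference toward DBA/2 in the family, and different probes were used in the 2 experiments. In experiment 1 it read 8.88, 8.92, 9.04 and 8.85 in unloaded AKR and 10.98, 10.83, 11.01 and 10.95 in unloaded DBA/2 cells, and 8.51, 8.58, 8.55 and 8.46 in loaded AKR and 10.99, 10.80, 10.89 and 10.84 in loaded DBA/2 cells. No AKR array reached a DBA/2 array. DBA/2 cells were 4.06-fold higher unloaded (2.02 ± 0.066, adjusted p = 4.71e-18) and 5.11-fold higher loaded (2.35 ± 0.066, adjusted p = 2.07e-19). Ctsh fell with loading in AKR cells (-0.40 ± 0.066, adjusted p = 2.87e-05), with -0.06 ± 0.066 in DBA/2 cells. The interaction of 0.33 ± 0.093 lay just outside the threshold (adjusted p = 0.0101).

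In experiment 2 Ctsh read 8.32 to 8.61 in unloaded AKR, 8.28 to 8.48 in loaded AKR, 10.28 to 10.56 in unloaded DBA/2 and 10.21 to 10.41 in loaded DBA/2 cells, again without overlap of the strains. The differences were 1.86 ± 0.097 unloaded (3.64-fold, adjusted p = 4.71e-10) and 1.93 ± 0.097 loaded (3.80-fold, adjusted p = 2.45e-10), and loading was not called in either strain, with or without the 2 AKR arrays.

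Ctsz, cathepsin Z or X, is a carboxypeptidase abundant in monocytes and macrophages. In experiment 1 its brightest probe read 12.06, 12.04, 12.19 and 12.20 in unloaded AKR cells and 12.58, 12.66, 12.65 and 12.53 in loaded AKR cells, without overlap. DBA/2 arrays ran from 12.17 to 12.28 unloaded and from 12.33 to 12.44 loaded. Loading raised Ctsz 1.4-fold in AKR cells (0.49 ± 0.063, adjusted p = 8.51e-07), with 0.17 ± 0.063 in DBA/2 cells (adjusted p = 0.0624) and an interaction of -0.32 ± 0.089 just outside the threshold (adjusted p = 0.01002). The second probe rose in both strains, by 0.42 ± 0.080 in AKR and 0.41 ± 0.080 in DBA/2 cells (adjusted p = 0.000144 and 0.000464), with an interaction of -0.01 ± 0.11. The probes agreed on the AKR rise and not on the size of the DBA/2 response. In experiment 2 Ctsz rose by 0.79 ± 0.11 in AKR cells without the 2 arrays (adjusted p = 6.77e-05), against 0.52 ± 0.15 by label (adjusted p = 0.360), with 0.25 ± 0.098 in DBA/2 cells (adjusted p = 0.0691). At the second probe of experiment 2 the DBA/2 means were 10.06 unloaded and 10.13 loaded, with overlapping arrays. AKR arrays there overlapped by label. Without the 2 arrays they ran from 9.83 to 10.19 unloaded and from 10.59 to 10.65 loaded.

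Ctsd, cathepsin D, is the main aspartic endopeptidase of the lysosome. In experiment 1 its probe lay between 12.999 and 13.58 on all arrays. It rose 1.25-fold with loading in AKR cells (0.32 ± 0.075, adjusted p = 0.00117), where unloaded arrays read 13.03, 12.999, 13.31 and 13.32 and loaded arrays 13.44, 13.58, 13.50 and 13.44. These groups did not overlap. DBA/2 arrays did not overlap either, at 13.17 to 13.30 unloaded and 13.31 to 13.45 loaded, though that difference was not called. No comparison of Ctsd other than loading in AKR cells was called there. Its group means stood at percentiles 99.67 to 99.77 of all probes, where differences may be compressed as for Ctsb. The probe of experiment 2 is a different and far dimmer one. It read 6.70, 6.72, 6.31 and 6.27 in unloaded AKR and 5.81, 6.10, 5.76 and 5.88 in unloaded DBA/2 cells, a difference of -0.61 ± 0.12 (adjusted p = 0.00159). The call was lost when only these 2 groups entered the fit (adjusted p = 0.0140). Loading was not called at this probe in either strain.

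Ctse, cathepsin E, is an aspartic protease of endosomes found in immune cells and epithelia. In experiment 1 it was higher in DBA/2 cells and lower after loading. It read 8.31, 8.05, 8.31 and 8.17 in unloaded AKR, 7.51, 7.42, 7.51 and 7.45 in loaded AKR, 8.83, 8.59, 8.72 and 8.75 in unloaded DBA/2 and 8.43, 8.11, 8.49 and 8.45 in loaded DBA/2 cells. Loaded AKR cells were lowest and unloaded DBA/2 cells highest without overlap, and unloaded AKR overlapped loaded DBA/2 cells. The strain difference was 0.51 ± 0.080 unloaded and 0.90 ± 0.080 loaded (adjusted p = 1.63e-05 and 1.57e-09). Loading lowered Ctse 1.67-fold in AKR cells (-0.74 ± 0.080, adjusted p = 5.77e-08) and 1.28-fold in DBA/2 cells (-0.35 ± 0.080, adjusted p = 0.00249). The DBA/2 call was lost without DBA/2 loaded replicate 2 (-0.27, adjusted p = 0.0149) or unloaded replicate 1 (-0.32, adjusted p = 0.0125), and the interaction of 0.39 ± 0.11 was not called (adjusted p = 0.0141).

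In experiment 2, at another probe, Ctse read 8.18, 8.9998, 8.92 and 9.21 in unloaded AKR, 8.25, 9.07, 8.17 and 8.21 in loaded AKR, 9.78, 10.003, 9.69 and 9.65 in unloaded DBA/2 and 9.06, 9.002, 9.08 and 8.94 in loaded DBA/2 cells. Unloaded DBA/2 arrays were above all others, and the arrays at 8.18 and 9.07 among AKR cells are those named above. By label the unloaded strain difference was 0.96 ± 0.21 (adjusted p = 0.00328), a call lost without DBA/2 unloaded replicate 2 (0.88, adjusted p = 0.0138). Loading gave -0.76 ± 0.21 in DBA/2 cells (adjusted p = 0.0169, not called) and -0.40 ± 0.21 in AKR cells. Without the 2 arrays Ctse changed by -0.83 ± 0.11 in AKR and by -0.76 ± 0.093 in DBA/2 cells (adjusted p = 2.23e-05 and 1.15e-05), and it was 0.74 ± 0.10 higher in unloaded and 0.81 ± 0.10 higher in loaded DBA/2 cells.

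Napsa, napsin A, is an aspartic protease known from lung and kidney that cuts surfactant protein precursors. It was higher in AKR cells in both states of both experiments. In experiment 1 it read 10.03, 10.07, 10.15 and 10.18 in unloaded AKR, 9.60, 9.58, 9.57 and 9.50 in loaded AKR, 8.19, 8.26, 8.20 and 8.16 in unloaded DBA/2 and 8.19, 8.08, 8.07 and 7.89 in loaded DBA/2 cells. Only the DBA/2 groups overlapped each other. Napsa was 2.84-fold lower in loaded DBA/2 than in loaded AKR cells (-1.51 ± 0.066, adjusted p = 1.92e-15), against 3.75-fold in unloaded cells. It fell by 0.54 ± 0.066 with loading in AKR cells (adjusted p = 3.31e-07) and gave -0.14 ± 0.066 in DBA/2 cells (adjusted p = 0.134). The responses differed by 0.40 ± 0.094 (adjusted p = 0.00262), and by 0.53 ± 0.12 at the second probe (adjusted p = 0.00163).

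In experiment 2 the brightest Napsa probe read 7.24, 8.31, 8.38 and 8.30 in unloaded AKR, 7.46, 8.07, 7.17 and 7.42 in loaded AKR, 5.49, 5.41, 5.08 and 5.27 in unloaded DBA/2 and 5.13, 5.29, 4.98 and 5.22 in loaded DBA/2 cells. The strains did not overlap, and the arrays at 7.24 and 8.07 are again the 2 named above. Without them Napsa was 8.12-fold lower in unloaded DBA/2 cells (-3.02 ± 0.11, adjusted p = 3.33e-11), against 6.72-fold by label, and 4.58-fold lower in loaded cells (-2.20 ± 0.11, adjusted p = 7.76e-10). In that fit it fell by 0.98 ± 0.12 with loading in AKR cells (adjusted p = 1.37e-05), with -0.16 ± 0.10 in DBA/2 cells (adjusted p = 0.294) and an interaction of 0.82 ± 0.16 (adjusted p = 0.00318). By label the AKR difference was -0.53 ± 0.22 and was not called. The 2 other probes gave -2.51 ± 0.24 and -2.88 ± 0.22 between the strains in unloaded cells by label (adjusted p = 8.77e-07 and 7.29e-08), and their interactions without the 2 arrays, 0.84 ± 0.20 and 0.63 ± 0.21, were not called (adjusted p = 0.0134 and 0.0694).

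**Figure D5:**
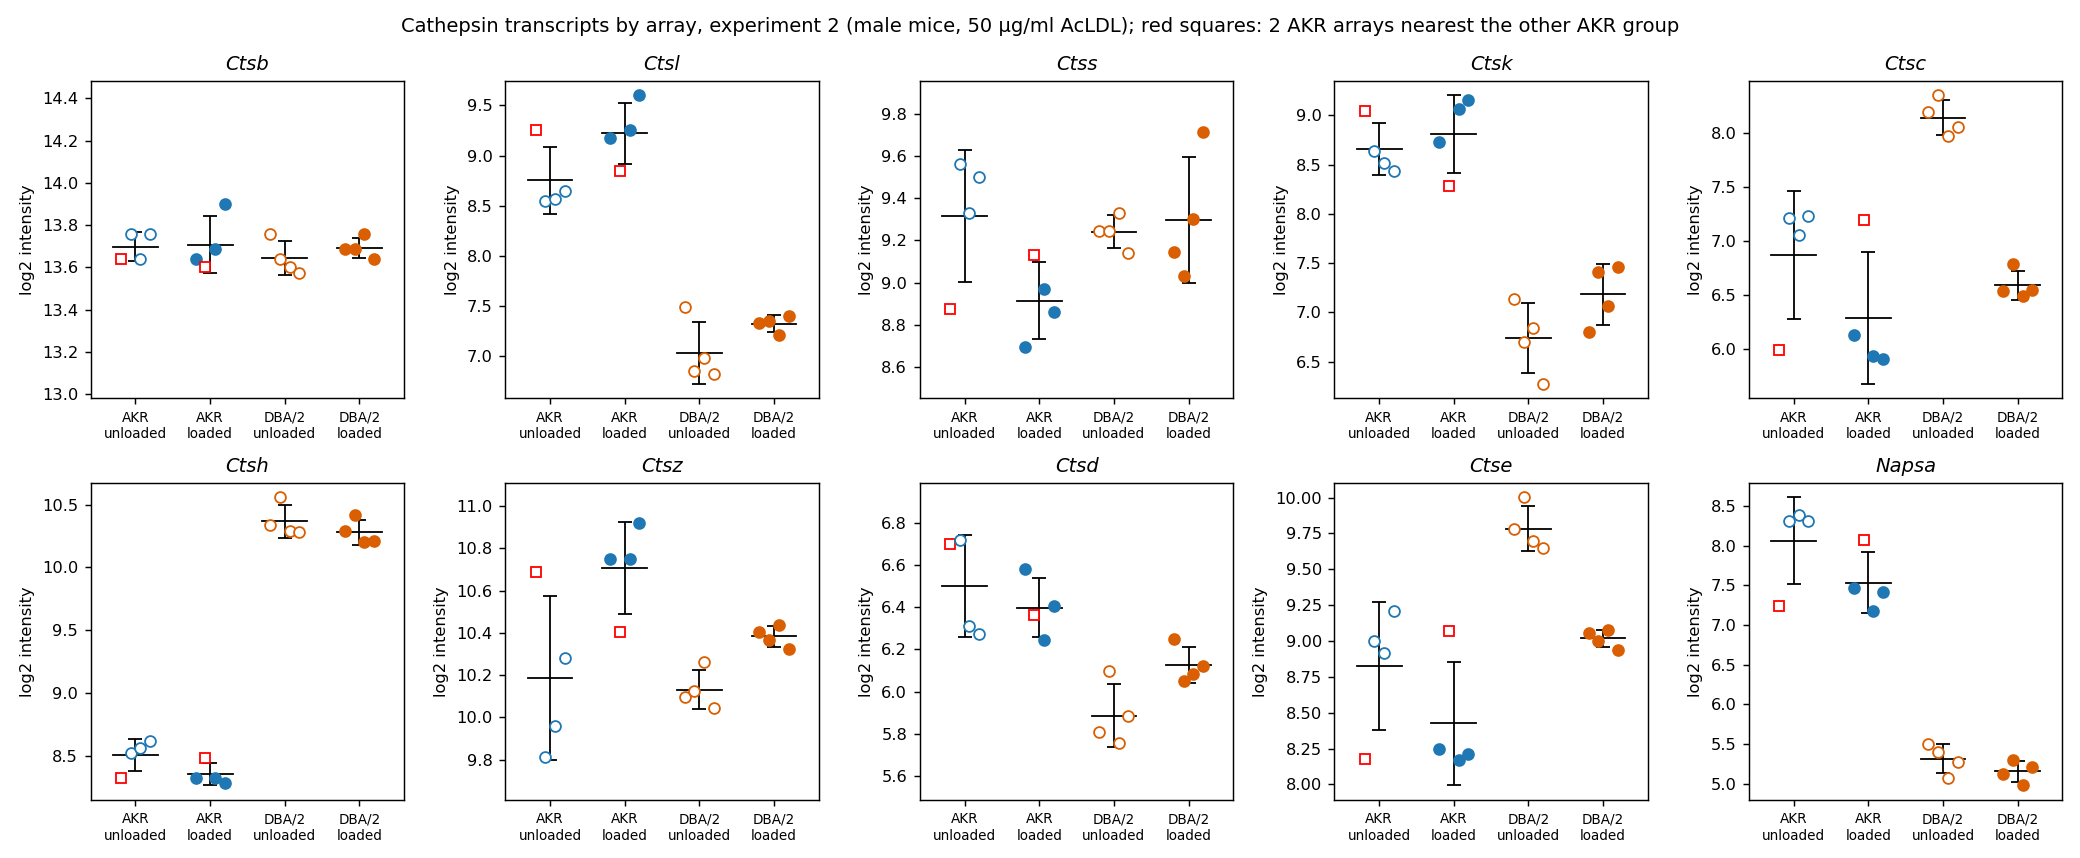
Log2 intensity (y axis) of each cathepsin gene at its brightest probe on the 16 arrays of experiment 2, by group (x axis), with 1 point an array, open for unloaded and filled for loaded cells, and lines for the mean ± SD of all 4 arrays by label. Red squares are AKR unloaded replicate 1 and AKR loaded replicate 2, which for Ctsc and Ctse lie near the other AKR group. For Ctsl the loaded square (8.85) lies between the groups, and for Napsa (8.07) it is nearer the unloaded arrays and below them.

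How the members varied together is given as a description over the 16 arrays of an experiment, which share strain and loading. The highest r was 0.97 between Ctsk and Ctsl in experiment 2, and 0.95 between Ctsc and Ctse there (0.90 in experiment 1). Ctsk ran against Ctse and Ctsc in experiment 1 (r = -0.97 and -0.93), and Ctsh against Napsa (r = -0.93). The neighbours Ctsk and Ctss had r = 0.29 in experiment 1 and -0.33 in experiment 2. Among 7173 genes measured in both experiments, by the lower of the 2 r, Ctsh was most like Prcp (0.997), Ndufa13 and Cd300ld (0.99 each), and Napsa most like Zfp277 (0.98), Tceanc2 (0.97) and Nasp (0.96). Ctsk was most like Cdk20 (0.97), Acaca and Bhlhe40 (0.96 each), Ctsc most like Gja1 (0.96), Slamf9 and Ebi3 (0.95 each), and Ctse most like Lst1, Pml and Hacd4 (0.96 each). Ctsz was most like Flrt2 (0.88), Slc6a9 and Tnfrsf12a (0.87 each), and Ctsd most like Sar1a (0.82), Tchp (0.79) and Rbpms (0.78), though its probes differ between the arrays. The values were lower for Ctss (0.69 with Eed and 0.66 with Ankrd17, 0.59 with Ubac1) and for Ctsb (0.59 with Ntn3 and Bhlhe41, 0.58 with Tmem158), neither of which was called at its brightest probe in experiment 1.

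Other peptidases of the lysosome were read from a list of 10 genes, of which 8 were tested in experiment 1 and 9 in experiment 2. For this and the other lists the experiment 2 values are without the 2 AKR arrays unless given by label, and by label no list gene was called with loading in AKR cells. In unloaded cells 5 of 8 were lower and 1 higher in DBA/2 cells in experiment 1, and 3 of 9 lower and 1 higher in experiment 2, with medians of -0.33 and -0.27. Of all genes 13.9% were lower and 14.3% higher in experiment 1, and 8.02% and 7.01% in experiment 2. Prcp, a carboxypeptidase that cuts after proline, was the one that was higher, by 3.33 ± 0.065 and 3.27 ± 0.087. Cpq, a plasma and lysosomal dipeptidase, had differences of -0.66 ± 0.080 and -0.59 ± 0.12 (by label -0.47, adjusted p = 0.0348, not called), and Tpp1, a tripeptidyl peptidase, of -0.38 ± 0.066 and -0.43 ± 0.10. Ctsf, cathepsin F, was lower in loaded DBA/2 cells (-0.40 ± 0.090 and -0.72 ± 0.16). With loading in AKR cells 1 of 8 rose and 2 fell in experiment 1, and 1 of 9 rose and 1 fell in experiment 2, where 16.2% of all genes rose and 15.1% fell in experiment 1, and 10.1% and 9.63% in experiment 2. Dpp7 rose by 0.68 ± 0.092 and 0.43 ± 0.11, and Prcp changed by -0.46 ± 0.065 and -0.60 ± 0.093. The 9 cathepsin L-like genes of rodent placenta mostly stayed under the filter, with 3 tested in experiment 1 and 2 in experiment 2, and no loading difference was called in them.

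Of 18 inhibitors of cathepsins (cystatins, stefins and serpins), 4 were tested in experiment 1 and 6 in experiment 2. With loading in AKR cells 3 of 4 rose and 1 fell in experiment 1, and 3 of 6 rose without the 2 arrays in experiment 2, beside 16.2% of all genes that rose and 15.1% that fell in experiment 1 and 10.1% that rose in experiment 2. Cstb, the cytosolic cysteine protease inhibitor stefin B, rose by 0.37 ± 0.060 and 0.59 ± 0.086. The serpins Serpinb6a and Serpinb6b rose by 0.40 ± 0.061 and 0.47 ± 0.12 in experiment 1 and by 0.45 ± 0.082 and 1.52 ± 0.22 in experiment 2. Serpinb6b also rose in DBA/2 cells, by 0.49 ± 0.12 and, by label, 2.36 ± 0.38.

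Genes for tagging and delivery of lysosomal enzymes were 11, with 11 and 10 tested. In DBA/2 cells 3 of 11 rose with loading in experiment 1 and 4 of 10 in experiment 2, and none fell by the test (medians 0.14 and 0.27, beside 0.01 and 0.03 for all genes, of which 6.42% and 10.3% rose). Igf2r, the cation-independent mannose 6-phosphate receptor, rose by 0.61 ± 0.080 and, by label, 1.22 ± 0.13. Lrp1, an endocytic receptor, rose by 0.74 ± 0.082 and 0.98 ± 0.13. In AKR cells no gene of this list was called with loading the same way in both experiments. The paper lists Igf2r as higher on average after loading in both strains of both experiments. It gives an adjusted p by experiment and not by strain. The rise of Igf2r there was larger in AKR cells in experiment 1 and in DBA/2 cells in experiment 2. Gnptab, whose enzyme makes the mannose 6-phosphate tag, was lower in unloaded DBA/2 cells (-0.49 ± 0.069 and -0.76 ± 0.12) and in loaded ones (-0.95 ± 0.069 and -0.68 ± 0.12). Of 9 regulators of lysosomal genes 8 were tested in each experiment. In AKR cells 4 of 8 rose and 1 fell with loading in experiment 1, and 2 of 8 rose in experiment 2 without the 2 arrays, against the same 16.2%, 15.1% and 10.1% of all genes. Rragd, a Rag GTPase of mTORC1 signalling, rose by 1.14 ± 0.068 and 1.20 ± 0.13, and Mcoln1, a lysosomal calcium channel, by 0.34 ± 0.073 and 0.70 ± 0.12.

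A list of 9 partners of the cathepsins in class II presentation had 7 genes tested in experiment 1 and 8 in experiment 2. With loading in AKR cells 7 of 7 fell in experiment 1 (median -0.89) and 6 of 8 in experiment 2 without the 2 arrays (median -1.19), against 15.1% and 9.63% of all genes. In DBA/2 cells 5 of 7 and 7 of 8 fell (medians -0.78 and -0.77), against 6.40% and 8.63% of all genes. By label the counts in experiment 2 were 0 of 8 in AKR and 1 of 8 in DBA/2 cells, against 0% and 3.74% of all genes. Cd74, the invariant chain that Ctss and Ctsl cut, had a loading difference of -1.12 ± 0.079 and, by label, -0.87 ± 0.20 in DBA/2 cells. In AKR cells the differences were -1.61 ± 0.10 and -1.32 ± 0.099 for H2-Eb1, a class II beta chain, -0.77 ± 0.098 and -1.87 ± 0.10 for H2-DMa, which helps load peptides, and -0.89 ± 0.088 and -1.80 ± 0.21 for Ciita, the class II transactivator. Between the strains the members went both ways: in unloaded cells H2-DMa was 1.61 ± 0.098 and 1.05 ± 0.094 higher in DBA/2 cells (by label 1.56, adjusted p = 0.0166, not called), while H2-DMb1 (-1.66 ± 0.088 and -2.97 ± 0.15) and Cd74 (-0.79 ± 0.079 and -1.32 ± 0.15) were lower.

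Of 12 genes of the osteoclast programme that includes Ctsk, 8 were tested in experiment 1 and 7 in experiment 2. In unloaded cells 2 of 8 were higher and 1 lower in DBA/2 cells in experiment 1, and 1 of 7 higher and 1 lower in experiment 2 without the 2 arrays, against 14.3% and 13.9% of all genes in experiment 1 and 7.01% and 8.02% in experiment 2. Mmp9, a gelatinase, was lower (-1.08 ± 0.11 and -0.65 ± 0.14), as Ctsk was. Tnfrsf11a, the receptor for RANKL, was higher by 0.89 ± 0.073 and 1.07 ± 0.095. With loading in AKR cells Tcirg1, a subunit of the osteoclast proton pump, rose by 1.26 ± 0.075 and 0.53 ± 0.098. The remaining genes of this and the other lists are counted above and were not called the same way in both experiments, or ranked below the 3 named for a list and comparison.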

How the data were processed

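Bone marrow derived macrophages were profiled on Illumina MouseRef-8 v1 (experiment 1) and Ref-8 v2 (experiment 2) arrays. The probe values are log2 intensities that the authors deposited after lumi 2.6.0 had taken logs and matched the quantiles of all arrays within an experiment. Background correction is not given in the sources used here, and the tables hold no detection p-values. The authors' removal of probes over strain polymorphisms and of undetected probes was not repeated, so a strain difference at a single probe was not checked for variants. Probe genes came from the platform annotation with GRCm38.p6 symbols: 20984 probes of experiment 1 had 1 gene, 1 had several and 3628 had none, and 23978, 0 and 1719 in experiment 2.

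Probes stayed in where at least 1 group averaged above the overall median (5.98 and 4.29), which left 13339 and 13732 probes. limma 3.58.1 in R 4.3.3 fitted the 4 groups over 16 arrays of an experiment (14 without the doubted AKR arrays) with eBayes, with comparisons of strain in unloaded and loaded cells, of loading in each strain, and of the responses, with Benjamini-Hochberg adjustment over all kept probes and a threshold of 0.01. The paper states that each chip held samples of all 4 groups. The labels do not name the chips, so chip was not a term in this fit. Values after ± are the SE of the fit. The number of arrays, 4 per group, limits the precision. The scripts were tested on simulated data. Alternatives were other filters, a mean over probes, array weights, a trend with robust variance, an offset of 50, a shift to one 75th percentile, 2-group fits, replicate blocks and leaving out arrays. All members were named. Of each list, genes called the same way in both experiments were named, at most 3 for a list and comparison, and the 3 genes most like a member. Members and lists were chosen with earlier results of these data known. Promoters were taken from a RefSeq table of GRCm38.p6, and figures drawn with matplotlib 3.10.9 under Python 3.11.15.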

Additional observations from a re-analysis of the deposited data

Results flagged for a closer look

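Of 116 groups of 4 values (each probe of a cathepsin gene in each group), 8 held an array far from the other 3, where chance gives about 1 in 20. In experiment 2, 4 of them were AKR unloaded replicate 1, at 5.99 for Ctsc, 9.26 for Ctsl, and 7.24 and 7.13 for the Napsa probes, and 2 were AKR loaded replicate 2, at 9.07 for Ctse and 10.12 for the second Ctsz probe. These are the arrays that correlated best with the other AKR group. In experiment 1 the flagged arrays were DBA/2 loaded replicate 2 for Ctse (8.11) and DBA/2 loaded replicate 3 for Ctsz (12.33).

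The loading response differed between the strains at 6 probes of experiment 1 by the limma interaction term (DBA/2 minus AKR response, adjusted p under 0.01). It was 1.04 and 0.84 at the probes of Ctsc, 0.40 and 0.53 at those of Napsa, -0.90 for Ctsk and -0.83 at the second Ctsb probe.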

How the results depend on the processing

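Counts are cathepsin genes called at the limma adjusted p under 0.01. No called direction reversed under any alternative run. In experiment 1 the interaction count of 3 became 5 with array weights, trend and robust eBayes, the mean of all kept probes, an offset of 50, the replicate block, replicates 1 and 2 against 3 and 4 as a term, or the stricter filter, and ranged from 3 to 5 with an array left out (5 without AKR unloaded replicate 4 or DBA/2 loaded replicate 2). The adjusted p of Ctsh and Ctsz was 0.0101 and 0.01002 as reported. The DBA/2 loading count of 2 ranged from 1 to 2 with an array left out (1 without DBA/2 loaded replicate 2 or unloaded replicate 1). In experiment 2 without the 2 AKR arrays, the strain count in loaded cells went from 4 to 7, AKR loading from 0 to 6 (6 with array weights), DBA/2 loading from 1 to 2 (an alternative chosen after seeing the data for this comparison; 2 with array weights and with only the 2 groups compared) and the interaction from 0 to 1. With a single array left out DBA/2 loading ranged from 1 to 2, with 2 without AKR loaded replicate 2 or AKR unloaded replicate 1. Over all probes, without the 2 arrays, the calls went from 1659 to 2669 (strain, loaded), from 0 to 2557 (AKR loading), from 1077 to 2494 (DBA/2 loading) and from 112 to 711 (interaction). With array weights they were 2903, 2240, 2341 and 461. DBA/2 loading gave 694 with no filter, 2073 with 2 groups and 633 to 1620 with an array left out. The interaction gave 64 with no filter, 191 with the offset and 65 to 168 with an array left out. The 2-group fit cannot give an interaction, and the 75th percentile shift changed nothing because the arrays share 1 set of quantiles. The replicate numbers were not taken as pairs, since the labels give them no shared source and same-numbered deviations did not all correlate above 0.1 (r of 0.011 to 0.157 in experiment 1 and -0.295 to 0.521 in experiment 2). The medians of same-numbered pairs were 0.082 and 0.098, against -0.042 and -0.034 for differently numbered ones. Thus 13 and 11 of 16 arrays correlated best with their own number, a hint from the data of a shared source and not from the design. The replicate block changed no other cathepsin count by over 1.5 times. Causes were not tested.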
